A study of Mus musculus with 4 samples.

Results

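The genes described here are *Btg4* and the genes of 9 deadenylases or deadenylase partners (*Cnot1*, *Cnot2*, *Cnot6*, *Cnot6l*, *Cnot7*, *Cnot8*, *Pan2*, *Pan3* and *Parn*), chosen by name for their role in shortening mRNA tails. All 10 were listed among the 21957 genes of the expression table, and all 10 had a mean of at least 5 FPKM, the value scaled to transcript length and library size, as 7148 genes did. RNA came from pools of 100 oocytes per library. The donors were females of the B6D2F1 hybrid (C57BL/6 x DBA), 6 to 8 weeks old, primed with gonadotropin, and the cumulus cells had been removed. GV oocytes, which are arrested in prophase of meiosis I with an intact germinal vesicle, were the untreated start of culture. The other 3 pools had been cultured for 12 h in M16 medium: MII oocytes without drug, which were kept where a polar body had been extruded, and TubA-10 and TubA-20 oocytes with tubastatin A (TubA), an inhibitor of the cytoplasmic deacetylase HDAC6. The paper proposes that in oocytes TubA is not selective for HDAC6 and also affects other deacetylases, among them sirtuins. The sample titles give TubA doses of 10 and 20 μM, which name the groups here, while the treatment field has 20 μM at the TubA-10 sample and 11 μM at the TubA-20 sample, so the dose order rests on the titles and on the methods of the study. No selection on the polar body is stated for the TubA oocytes. The paper reports that oocytes under TubA did not extrude a polar body. It describes an arrest before the MII stage at the higher dose. Drug and meiotic stage therefore cannot be told apart in comparisons with MII. In comparisons of TubA oocytes with GV, the drug cannot be told apart from 12 h of culture and any change of stage. Between the TubA pools, dose and stage cannot be told apart either. The title of the MII sample calls it an embryo, and no DMSO control is named in the labels.

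Each group had 1 library, so no value has a replicate error, no test could be run, and neighbours in an order of levels cannot be told from each other by any measured spread. A gene was called higher or lower when the ratio of FPKM + 1 passed 2-fold, and every log2 value below is on that scale. The GV library enters 3 of the 6 comparisons and the others share libraries in the same way, so their values stand side by side and are not independent. An FPKM is a share of the library, so the RNA content of an oocyte is not seen, and less RNA of a gene per oocyte cannot be told from more of other RNA. The table holds no read counts. A rough estimate from the steps between its lowest values put every one of the 10 genes at 411 fragments or more in each library, with relative depths of 1.36 (MII), 1.47 (TubA-10) and 0.841 (TubA-20) to GV. The read totals that the paper reports are higher for TubA-20 than for GV, so the estimate and these totals differ in order there. The estimate is therefore no measure of how deeply a library was sequenced. All 10 oocyte markers examined were at 1 FPKM or more in every library and summed to between 15780 and 21797 FPKM. Single oocyte markers differed in direction: *Figla* was at 90.5 FPKM in GV and 12.4 under TubA-20, and *Oosp1* at 2700 and 6213. The 12 cumulus and granulosa markers summed to 15.9 (GV), 13.4 (MII), 10.4 (TubA-10) and 16.5 (TubA-20) FPKM, with 2 to 4 of them at 0 and the granulosa factor *Foxl2* at 0 in all 4 libraries. These markers went both ways: 4 of 12 were higher in GV than in all 3 cultured pools, with the inhibin gene *Inha* at 7.50 FPKM in GV and 0.239 to 0.314 FPKM in the pools, and 6 of 12 were lower in GV than in all 3, with the aromatase gene *Cyp19a1* at 6.14 FPKM in GV and 7.42 to 10.3 FPKM in the pools. The part of such cells in the comparisons with GV was not tested. Of 6 blood markers, all were listed at 0 except *Ptprc* at 0.00893 FPKM in TubA-10.

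A full-grown oocyte transcribes little and runs on stored maternal mRNA, and the length of the poly(A) tail helps to decide whether a stored mRNA is translated or destroyed. Deadenylases remove the tail. The PAN2-PAN3 complex trims long tails, and CCR4-NOT, built on the scaffold CNOT1, carries a CAF1 nuclease (CNOT7 or CNOT8) and a CCR4 nuclease (CNOT6 or CNOT6L). BTG4 is an oocyte adaptor that joins CCR4-NOT to the translation machinery, and in the mouse it is known for the clearance of maternal mRNA around meiotic maturation. Several of these mRNAs are themselves stored and are held back until maturation through cytoplasmic polyadenylation elements (CPEs), U-rich motifs near the 3′ end that the protein CPEB1 binds. The RNA was selected with oligo(dT) before sequencing, so a gain or loss of tail could change a value without a change in the number of mRNA molecules, and tail length was not measured.

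The windows that hold these elements are shown for the genes whose levels are compared next, since they are the sites through which stored mRNAs of this kind are known to be regulated. The letters TTTTAT and TTTTAAT were searched on the transcript strand in the last 150 bases of the 3′ UTR of the principal transcript in GENCODE M21 (GRCm38), and the cleavage hexamers AATAAA and ATTAAA in the last 40 bases. *Cnot8* has no transcript with a complete annotated 3′ end and was left out, so 9 genes had a window. Capitals mark the motif, and each line gives 30 bases of 3′ UTR exon.
Btg4, first element, chr9:51119748-51119777, plus strand: gtaaccagtctaTTTTATaaatctgttaaa
Btg4, second element, chr9:51119797-51119826, plus strand: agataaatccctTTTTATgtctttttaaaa
Cnot7, last element, chr8:40493038-40493067, minus strand: tcttaaggtacaTTTTATatcaataaaaat
Pan2, middle element, chr10:128321305-128321334, plus strand: taaaacagcatgTTTTATaaaataaaagta
Pan3, the element found, chr5:147548460-147548489, plus strand: atagcagtattTTTTAATaaagaattgcag
Cnot1, the element found, chr8:95719504-95719533, minus strand: aagatgtattgaTTTTATatatgtgagtac
Parn, cleavage hexamer and no CPE, chr16:13537963-13537992, minus strand: caaaaagctgaaATTAAAgaaaatttccta
Cnot6l, cleavage hexamer and no CPE, chr5:96070340-96070369, minus strand: ttccctgtaggcAATAAAtggccattttgc

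The last 150 bases held 2 of these CPE letters in *Btg4*, 3 in *Cnot7*, 3 in *Pan2*, 1 in *Pan3* and 1 in *Cnot1*, and 0 in *Cnot6*, *Cnot6l*, *Cnot2* and *Parn*. The *Btg4* motifs began 116 and 67 bases before the annotated end, the *Cnot7* motif above 20 bases, the *Pan2* motif 37 bases and the *Pan3* motif 32 bases, where its letters overlap an AATAAA hexamer. In *Cnot7* the other motifs, at 113 and 108 bases, overlap each other. Thus 5 of 9 genes (55.6%) held a CPE in this window, beside 23.4% of all 18094 genes with such a window and 27.7% of the 6372 with a mean of at least 5 FPKM. With the longest annotated 3′ UTR in place of the principal one it was 4 of 9, since the longer *Cnot7* end held none. A hexamer lay in the last 40 bases in 6 of 9 genes and in 73.8% of all genes. The genes without one were *Btg4*, *Cnot6* and *Cnot1*, so the *Btg4* distances are counted from an annotated end without these letters. Over the whole 3′ UTR, *Cnot6l*, whose 3′ UTR of 6847 bases is the longest of the 9, held 16 CPE matches and *Parn*, with 890 bases, held 0. Matches of letters do not show that the element is used, and the absence of these letters in the window says nothing about other motifs.

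**Figure D1:**
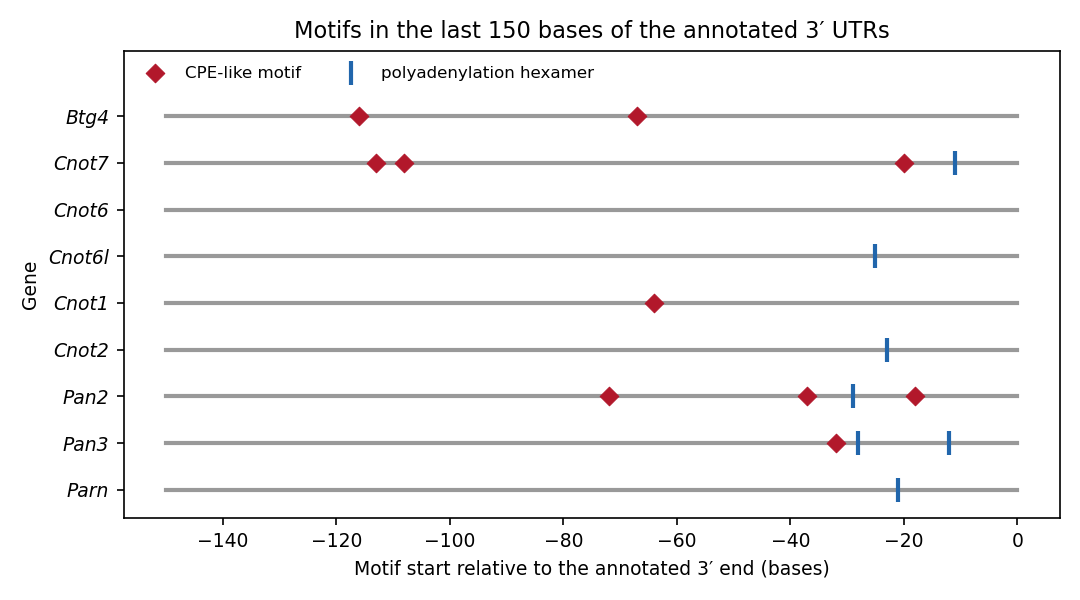
Position of CPE letters and cleavage hexamers in the last 150 bases of the annotated 3′ UTRs of 9 genes. The x axis gives the start of the motif in bases before the annotated 3′ end and the y axis the gene, and 5 genes (*Btg4*, *Cnot7*, *Cnot1*, *Pan2* and *Pan3*) carry a CPE motif in this window.

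*Btg4* (chromosome 9, 51060901 to 51119875, plus strand) was by far the most abundant of the 10 mRNAs in every library. Its level was 1808 FPKM in GV, 2589 in MII, 3031 under TubA-10 and 2536 under TubA-20, which put it at percentile 99.9 of all genes in GV. GV was the lowest library and TubA-10 the highest, with MII and TubA-20 close to each other. The log2 difference from GV was 0.52 in MII, 0.74 under TubA-10 and 0.49 under TubA-20, none of them past 2-fold as deposited. Only with the *Gapdh* level of each library set to that of GV did TubA-10 pass it, at 1.01. From MII to TubA-20 the difference was −0.03. *Tob2*, a member of the same BTG and TOB family of CAF1-binding proteins and the next highest of that family in these oocytes, had 40.5 FPKM in GV, and the ratio of *Btg4* to *Tob2* was 44.6 in GV, 49.1 in MII, 61.4 under TubA-10 and 46.8 under TubA-20. The genes *4833427G06Rik* and *Layn* overlap *Btg4* on the opposite strand, and the library kit keeps strand.

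**Figure D2:**
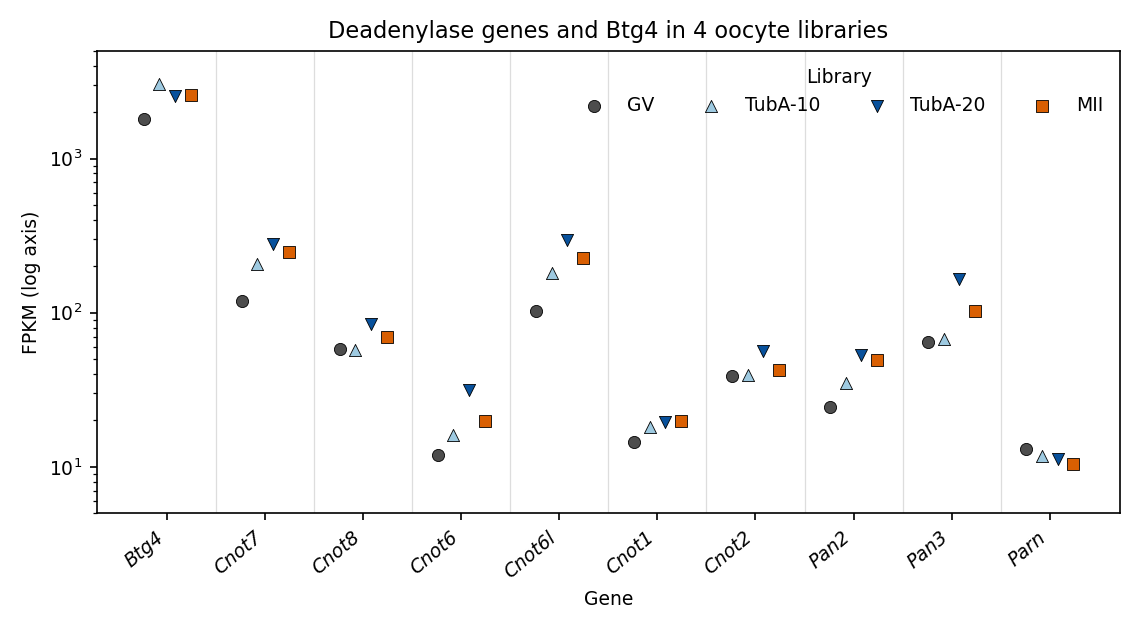
Levels of the 10 genes in the 4 libraries. The y axis is FPKM on a log axis, the x axis lists the genes, and each point is 1 library with no error bar because each group had 1 library. *Btg4* lies between 1808 and 3031 FPKM, above the other 9 genes in every library.

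The catalytic CCR4-NOT subunits differed in level between the paralogues of each pair. *Cnot7* (chromosome 8, 40492540 to 40515847, minus strand), the CAF1 nuclease, was at 120 FPKM in GV, 248 in MII, 206 under TubA-10 and 279 under TubA-20. Its paralogue *Cnot8* (chromosome 11, 58104153 to 58118594, plus strand) was at 57.8 FPKM in GV, 69.1 in MII, 57.6 under TubA-10 and 84.0 under TubA-20. All 3 cultured pools were above GV for *Cnot7*, whereas for *Cnot8* TubA-10 lay at the GV level. *Cnot7* was past 2-fold above GV in MII (log2 1.05) and TubA-20 (1.22) and at 0.78 in TubA-10. *Cnot8* was at 0.25 in MII, 0.53 in TubA-20 and −0.0037 in TubA-10, and its TubA-10 value turned positive (0.03 to 0.26) after scaling to equal sums, equal upper quartiles or equal *Gapdh*. The ratio of *Cnot7* to *Cnot8* was 2.07 in GV and between 3.33 and 3.59 in the cultured pools, a quotient within 1 library that no scaling moves. The reading of *Cnot8* is uncertain because a processed pseudogene, *Gm18860*, matches 760 of its bases at 97.8% identity.

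Of the CCR4 nucleases, *Cnot6l* (chromosome 5, 96070333 to 96164171, minus strand) was the more abundant and showed the largest differences of the 10 genes from GV. It had 103 FPKM in GV, 228 in MII, 181 under TubA-10 and 296 under TubA-20. Its paralogue *Cnot6* (chromosome 11, 49671503 to 49712723, minus strand) had 11.9 FPKM in GV, 19.9 in MII, 16.1 under TubA-10 and 31.7 under TubA-20. Both genes followed the order GV, TubA-10, MII and TubA-20 from low to high. *Cnot6l* was 2.22-fold above GV in MII (log2 1.14) and 2.89-fold in TubA-20 (log2 1.52), which are percentiles 96.1 and 97.8 of the changes of the 7148 genes, and it was at 0.82 in TubA-10. *Cnot6* was at log2 0.69 in MII, 0.41 under TubA-10 and 1.34 under TubA-20, so that only TubA-20 was past 2-fold. Between TubA-20 and MII, *Cnot6* differed by 0.65 and *Cnot6l* by 0.38. The ratio of *Cnot6l* to *Cnot6* was 8.63 in GV, 11.5 in MII, 11.2 under TubA-10 and 9.35 under TubA-20. A processed pseudogene, *Gm12191*, overlaps the *Cnot6* gene on the same strand, and whether its reads enter the *Cnot6* value was not examined.

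The non-catalytic subunits on the list varied less than *Cnot7*, *Cnot6* and *Cnot6l*, with *Cnot2* close to the catalytic *Cnot8* in its range. *Cnot1* (chromosome 8, 95719451 to 95807464, minus strand), the scaffold that holds the complex together, was at 14.4 FPKM in GV, 19.9 in MII, 18.1 under TubA-10 and 19.5 under TubA-20. Its highest level was 1.38 times its lowest, and no library passed 2-fold from another. *Cnot2* (chromosome 10, 116485161 to 116581511, minus strand), which pairs with CNOT3 on that scaffold, was at 38.7 FPKM in GV, 42.5 in MII, 39.4 under TubA-10 and 56.2 under TubA-20, so TubA-20 stood above the other libraries. The log2 difference of *Cnot2* from GV was 0.53 under TubA-20, 0.13 in MII and 0.02 under TubA-10, and the values for MII and TubA-10 became −0.01 and −0.13 when the median change was set to 0. The *Cnot1* mRNA carries long matches to the processed pseudogenes *Gm6158* (903 bases, 99.8% identity) and *Gm17752* (313 bases, 90.4%), so its level is uncertain to the extent that reads were shared.

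The other enzymes were *Pan2*, *Pan3* and *Parn*. *Pan2* (chromosome 10, 128303335 to 128321358, plus strand), the nuclease of its complex, was at 24.5 FPKM in GV, 49.6 in MII, 34.7 under TubA-10 and 53.4 under TubA-20. *Pan3* (chromosome 5, 147430161 to 147548502, plus strand), which binds the poly(A)-binding protein and brings PAN2 to the tail, was at 64.8 FPKM in GV, 102 in MII, 67.6 under TubA-10 and 166 under TubA-20. *Pan3* in TubA-10 lay near GV, and in TubA-20 above every other library. The log2 difference of *Pan2* was 0.99 in MII and 1.09 in TubA-20 against GV, and it was 0.49 in TubA-10. The value in MII missed 2-fold only narrowly and passed it with a smaller pseudocount (1.01 and 1.02) or after scaling to equal sums, upper quartiles or *Gapdh* (1.05 to 1.21), and it was 2.02-fold without any pseudocount. *Pan3* differed from GV by 0.65 in MII, 0.06 under TubA-10 and 1.34 under TubA-20, and the TubA-10 value became −0.10 with the median change at 0. From TubA-10 to TubA-20 *Pan3* differed by 1.28, at percentile 99.9 of the 7148 genes. The ratio of *Pan3* to *Pan2* was 2.64 in GV, 2.06 in MII, 1.95 under TubA-10 and 3.11 under TubA-20. The processed pseudogene *Gm42883* overlaps the *Pan3* gene on the same strand, and whether its reads enter the *Pan3* value was not examined.

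*Parn* (chromosome 16, 13537960 to 13668170, minus strand) encodes the poly(A)-specific ribonuclease of the nucleus and cytoplasm, which also trims small non-coding RNAs. It was at 13.0 FPKM in GV, 10.4 in MII, 11.7 under TubA-10 and 11.2 under TubA-20, a range of 1.24-fold. As deposited, it was the only one of the 10 genes with its highest value in GV. Its log2 difference from GV was −0.29 in MII, −0.14 under TubA-10 and −0.20 under TubA-20, and the TubA-10 value became 0.11 with equal *Gapdh*.

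Against GV, MII oocytes thus carried 2 of 10 genes past 2-fold higher (*Cnot7* and *Cnot6l*) and 0 lower. Of all genes, 3.05% were past 2-fold higher and 8.34% lower, and of the 7148 genes with a mean of at least 5 FPKM, 8.60% and 18.9%. With any size of difference, 9 of 10 were higher in MII, beside 55.8% of the 7148, and 8 of 10 with the median change set to 0, beside 51.2%. The members' median log2 difference was 0.58, beside 0.17 in the 7148 genes. In TubA-10 against GV, 0 of 10 were past 2-fold in either direction, with 0.742% of all genes higher and 5.60% lower (1.80% and 12.6% of the 7148). The median of the 10 was 0.36 beside 0.19, and 8 of 10 were higher, beside 60.5% of the 7148. With the median change at 0 it was 6 of 10, beside 52.6%, and with equal *Gapdh* 10 of 10, beside 70.1%. In TubA-20 against GV, 5 of 10 were past 2-fold higher (*Cnot7*, *Cnot6*, *Cnot6l*, *Pan2* and *Pan3*) and 0 lower, with 7.61% of all genes higher and 11.7% lower (21.0% and 24.7% of the 7148). The median of the 10 was 0.81 beside 0.28, and 9 of 10 were higher under every scaling tried, beside 52.0% to 58.3% of the 7148. With the median change at 0, 3 of 10 stayed past 2-fold (*Cnot6*, *Cnot6l* and *Pan3*), and in MII against GV 1 of 10 did (*Cnot6l*). With either smaller pseudocount, equal sums, equal upper quartiles or equal *Gapdh*, *Pan2* joined in MII, which made it 3 of 10. The shares of all genes past 2-fold were not computed under these alternatives or with the median change at 0.

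The cultured pools were also compared with each other. In TubA-10 against MII, 0 of 10 were past 2-fold, with 0.515% of all genes higher and 0.128% lower (1.23% and 0.154% of the 7148). Of the 10 genes, 8 had a lower value in TubA-10, beside 49.0% of the 7148, with a median of −0.26 beside 0.01, and the lowest was *Pan3* at −0.59, percentile 1.69 of the 7148. In TubA-20 against MII, 0 of 10 were past 2-fold, with 0.328% of all genes higher and 2.44% lower (0.364% and 6.41% of the 7148). The median was 0.22 beside 0.04, with 8 of 10 higher, beside 53.6% of the 7148. After scaling to equal sums, equal upper quartiles or equal *Gapdh* it was 6 of 10, beside 39.4% to 43.1%. *Pan3* at 0.70 and *Cnot6* at 0.65 were percentiles 96.8 and 95.6 of the 7148. In TubA-20 against TubA-10, 1 of 10 was past 2-fold higher (*Pan3*, 2.46-fold) and 0 lower, with 0.660% of all genes higher and 5.52% lower (1.32% and 14.4% of the 7148). The median was 0.52 beside 0.09, with 8 of 10 higher, beside 54.3%, and 7 of 10 with equal *Gapdh*, beside 44.0%.

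**Figure D3:**
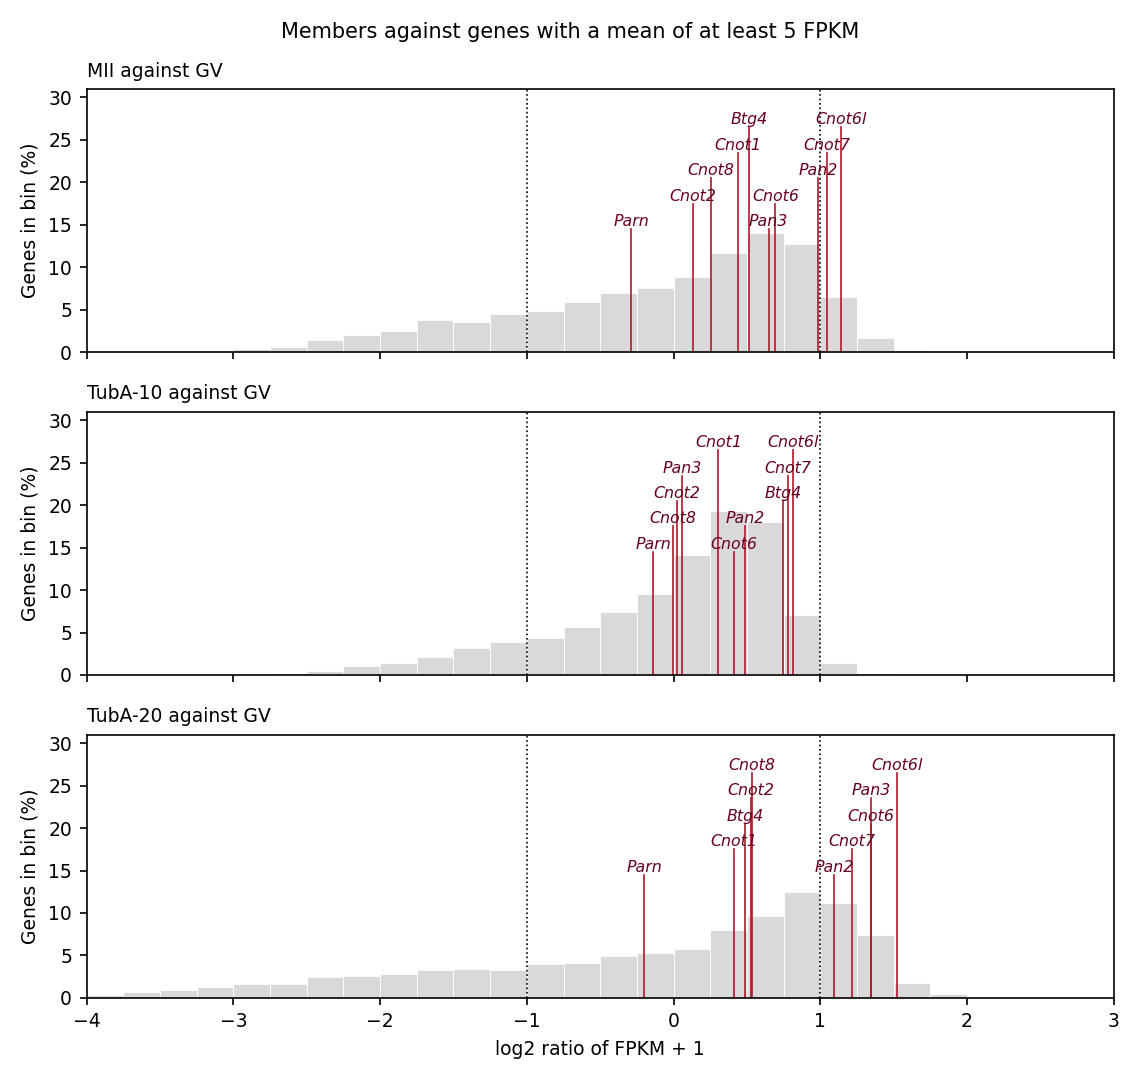
Log2 ratio of FPKM + 1 against GV in MII, TubA-10 and TubA-20, in 3 panels. The x axis is the log2 ratio, the y axis the percent of the 7148 genes with a mean of at least 5 FPKM in each bin, the dotted lines mark 2-fold, and each red line is 1 of the 10 genes. The red lines fall within the range of the grey genes in every panel, with *Cnot6l* near the right edge, and the grey genes have a long left tail (medians of 0.17, 0.19 and 0.28 beside 0.58, 0.36 and 0.81 for the 10 genes).

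The 4 levels of a gene can also be read as an order. The order GV, TubA-10, MII and TubA-20 from low to high held for 6 of 10 genes (*Cnot7*, *Cnot6*, *Cnot6l*, *Cnot2*, *Pan2* and *Pan3*) and for 29.8% of the 7148. With the median change set to 0 it held for 4 of 10, beside 24.4%. TubA-20 was the highest library for 7 of 10, beside 42.7%. After scaling to equal sums, equal upper quartiles or equal *Gapdh* it was 6 of 10, beside 33.49%, 34.57% and 31.04% of the 7148. GV was the lowest for 8 of 10, beside 50.3%, and for 6 to 9 of 10 over the scalings tried, beside 43.8% to 55.6%. The level in TubA-10 lay between GV and MII for 8 of 10, beside 68.8% of the 7148, and with the median change at 0 for 6 of 10, beside 69.8%. With equal sums or equal upper quartiles it was 9 of 10, beside 69.9% and 69.2%, and with equal *Gapdh* 8 of 10, beside 64.6%. As deposited, *Btg4* was the only one of the 10 with its highest level in TubA-10. Genes closest to *Btg4* over the 4 libraries, by the root mean square distance of mean-centred log2(FPKM + 1), were *Zc2hc1a* (0.0120), *Spam1* (0.0269), *Plpp2* (0.0334), *Camkmt* (0.0342) and *Mab21l2* (0.0344). With a pseudocount of 0.1 FPKM 2 of these 5 remained among the nearest 5, and all but *Camkmt* lay between 3.66 and 9.98 FPKM, where adding 1 FPKM compresses a change. Among the other 9 genes the nearest to *Btg4* was *Cnot1* at 0.171, rank 504 of 7147, and the rest ranked 2645 to 5138.

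A list of 35 further genes of deadenylation was examined, of which 25 had a mean of at least 5 FPKM, while *Nanos3* and *Zfp36l3* were listed at 0 in every library. Of the 35, 5 were past 2-fold higher and 3 lower in MII against GV, 0 and 2 in TubA-10 against GV, and 6 and 5 in TubA-20 against GV. The shares of the 35 in MII were 14.3% and 8.57%, beside 3.05% and 8.34% of all genes, under TubA-10 0% and 5.71%, beside 0.742% and 5.60%, and under TubA-20 17.1% and 14.3%, beside 7.61% and 11.7%. Most of all genes lie below 5 FPKM, so the 25 are the closer comparison. Of the 25, 4 (16%) were higher and 2 (8%) lower in MII, beside 8.60% and 18.9% of the 7148 genes. Under TubA-10 it was 0 and 1, beside 1.80% and 12.6%. Under TubA-20 it was 5 (20%) and 5 (20%), beside 21.0% and 24.7%, so the shares past 2-fold were close to those of other genes at such levels. The count of 5 higher under TubA-20 became 8 with either smaller pseudocount or equal *Gapdh* and 3 with the median change at 0, and with equal *Gapdh* 2 were higher under TubA-10. The shares of the 7148 past 2-fold were not computed under these settings. The median log2 difference of the 35 from GV was 0.17 in MII, 0.05 under TubA-10 and 0.15 under TubA-20. For the 25 it was 0.36, 0.18 and 0.57, beside 0.17, 0.19 and 0.28 in the 7148 genes.

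Within CCR4-NOT, 2 other subunits had lower values in the cultured pools than in GV, where *Cnot7* and *Cnot6l* had higher ones. *Cnot10*, a subunit of the N-terminal module of the complex, was at 23.7 FPKM in GV, 6.40 in MII, 5.62 under TubA-10 and 2.74 under TubA-20. Its log2 difference from GV was −1.74, −1.90 and −2.72, past 2-fold in all 3. *Cnot9*, which receives the tryptophan-bearing silencing factors, was at 11.4 FPKM in GV, 6.14 in MII, 6.36 under TubA-10 and 2.70 under TubA-20, a log2 of −0.80 in MII and −1.75 in TubA-20. Both stayed lower than in GV under every pseudocount and scaling tried. *Cnot3*, the partner of CNOT2, was at 278 FPKM in GV and 313, 328 and 389 in MII, TubA-10 and TubA-20, so that *Cnot3* stood 19.3, 15.7, 18.2 and 20.0 times above *Cnot1*. *Cnot11*, the partner of CNOT10, was at 189 FPKM in GV, 162 in MII, 196 under TubA-10 and 162 under TubA-20, which passed 2-fold in no pair. The subunits of 1 complex differed in level and in the direction of their differences.

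Among the enzymes with a deadenylase-like fold, *Angel2* and *Noct* were higher after culture and *Pnldc1* lower. *Angel2*, a relative of the CCR4 nucleases, was at 49.3 FPKM in GV, 99.7 in MII, 93.1 under TubA-10 and 130.5 under TubA-20. It was just past 2-fold in MII, at 2.02-fold without the pseudocount, and at a log2 of 0.90 and 1.39 from GV under TubA-10 and TubA-20. *Noct*, or nocturnin, was at 75.4 FPKM in GV, 122 in MII, 114 under TubA-10 and 198 under TubA-20, past 2-fold in TubA-20 with a log2 of 1.38. *Pnldc1*, a PARN relative that trims piRNA ends, was at 10.3 FPKM in GV, 3.96 in MII, 6.01 under TubA-10 and 1.17 under TubA-20. It was past 2-fold lower in MII (−1.19) and in TubA-20 (−2.38), and also in TubA-20 against MII (−1.19). Its relative *Parn* differed by no more than 0.29 in size in any pair.

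**Figure D4:**
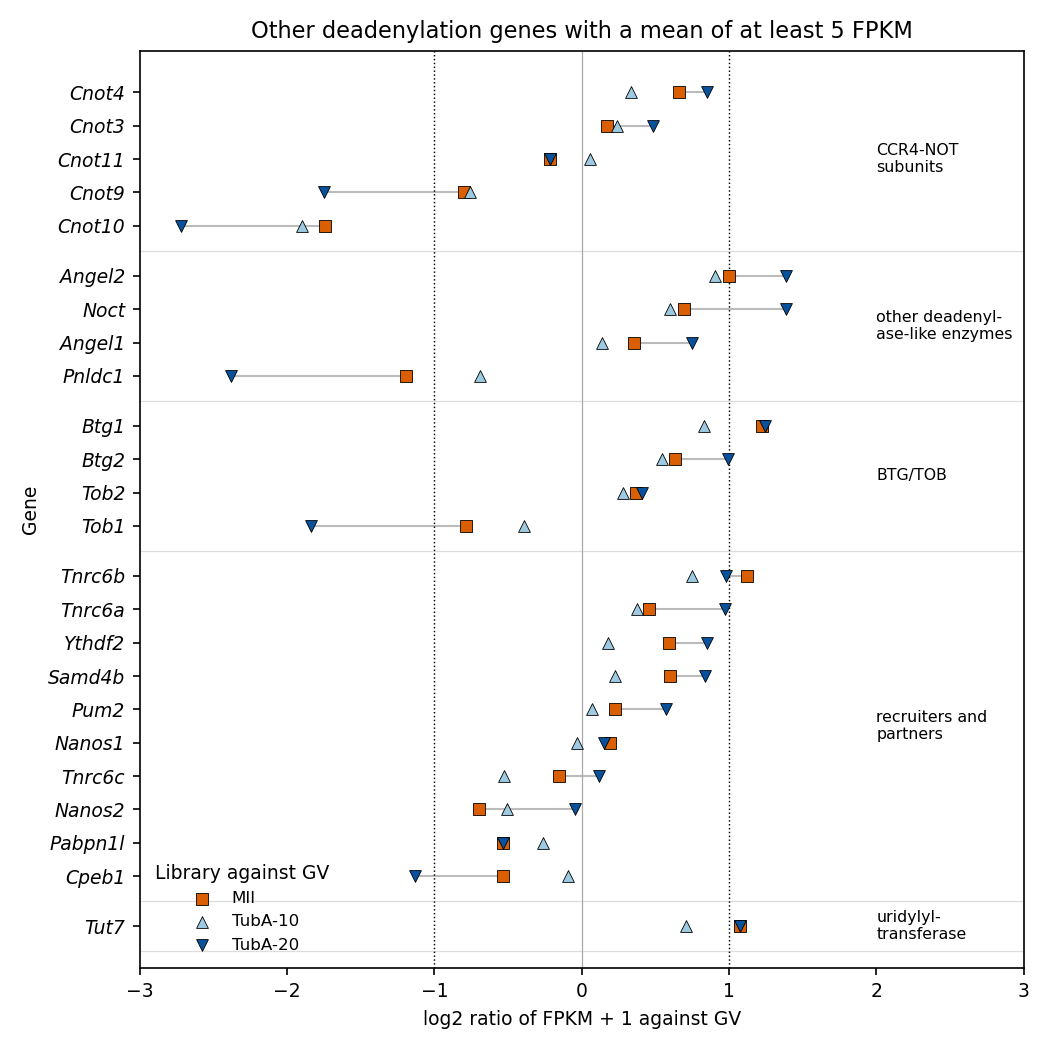
Log2 ratio of FPKM + 1 against GV for 24 of the 25 other deadenylation genes with a mean of at least 5 FPKM. The x axis is the log2 ratio, the y axis lists the genes, and the points are the MII, TubA-10 and TubA-20 libraries. *Cnot10* reaches −2.72 and *Pnldc1* −2.38 in TubA-20, while *Angel2* and *Noct* reach 1.39 and 1.38.

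The adaptors and recruiters also split. *Btg1*, an antiproliferative CAF1 partner related to *Btg4*, was at 7.10 FPKM in GV, 17.9 in MII, 13.4 under TubA-10 and 18.1 under TubA-20 (log2 against GV 1.23, 0.83 and 1.24). *Tob1*, of the same family, was at 11.2 FPKM in GV, 6.08 in MII, 8.29 under TubA-10 and 2.41 under TubA-20, and it was past 2-fold lower in TubA-20 against GV (−1.84) and against MII (−1.05). Among the recruiters, the microRNA silencing scaffold *Tnrc6b* passed 2-fold in MII (1.12, from 2.96 to 7.63 FPKM). Its level was 5.63 FPKM under TubA-10 (0.75) and 6.80 FPKM under TubA-20 (0.98, or 2.30-fold without the pseudocount). *Tut7*, which adds uridines to short tails, passed 2-fold in MII and in TubA-20 at 1.07 (from 4.26 to 10.1 FPKM). *Cpeb1*, which binds the CPE letters shown above, was at 185 FPKM in GV, 127 in MII, 173 under TubA-10 and 83.8 under TubA-20, a log2 of −0.53, −0.10 and −1.13 from GV. With the median change set to 0, *Tnrc6b*, *Tut7* and *Angel2* were no longer past 2-fold in MII, nor *Tut7* in TubA-20.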

How the data were processed

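Pooled mouse oocytes were measured by mRNA sequencing in 4 libraries, 1 per group. Per the labels the reads were processed with STAR 2.5.0, Cufflinks and Cuffdiff 2.2.1 on mm10, and the deposited table gives FPKM for 21959 entries. The authors thus scaled FPKM to transcript length and to the fragments mapped in each library. The labels name TRIzol and a stranded kit, the paper another RNA isolation kit, and the gene model is named UCSC although identifiers are Ensembl ones.

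Symbols, coordinates and 3′ UTRs came from GENCODE M21 (GRCm38). 165 entries had no symbol, and entries that share a symbol were added up. Ratios used FPKM + 1 with no other scaling, and a gene was called past 2-fold. Without replicates no test was run. Read counts are not in the table, so no counting interval was computed. The 10 genes were all named. Of 35 other deadenylation genes, those with a mean of at least 5 FPKM and past 2-fold in MII or TubA-20 against GV, or in TubA-20 against MII, were named except 1 that is not reported here, as were the 5 nearest genes to *Btg4*. Genes outside this rule (*Tob2*, *Cnot3*, *Cnot11*, *Figla*, *Oosp1*, *Foxl2*, *Inha*, *Cyp19a1*, *Ptprc*, *Nanos3* and *Zfp36l3*) were named after their values were seen. The members and lists were chosen with earlier results of these data known. Copies of members were taken as transcripts with at least 90% identity over 200 bases. Alternatives were pseudocounts of 0.1 and 0.01 FPKM, 4 scalings (median log2 change of 0, equal FPKM sums, equal upper quartiles, equal *Gapdh*), the highest entry of a shared symbol, filters on low values and the longest 3′ UTR. Scripts were tested on simulated data. Python 3.11.15 with numpy 2.4.6, pandas 2.3.3, biopython 1.88 and matplotlib 3.10.9 was used.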

Additional observations from a re-analysis of the deposited data

How the results depend on the processing

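With the median log2 change set to 0, which shifts MII by −0.14, TubA-10 by −0.16 and TubA-20 by −0.23 on the log2 scale, members past 2-fold higher went from 2 to 1 in MII against GV and from 5 to 3 in TubA-20 against GV. The first of these counts was 3 under 5 of the other alternatives. With the *Gapdh* level of each library set to that of GV, members past 2-fold higher in TubA-10 against GV went from 0 to 3 (*Btg4* 1.01, *Cnot7* 1.04 and *Cnot6l* 1.08). This scaling multiplies the TubA-10 value of every gene by 1.20. The share of all genes past 2-fold was not computed under the scalings or smaller pseudocounts, so these counts have no background beside them. With a pseudocount of 0.1 FPKM, 2 of the 5 genes nearest to *Btg4* remained. The other counts of members, and the CPE count of 5 of 9 against 4 of 9, stayed within 1.5 times their value. Of 420 log2 values of members under alternatives, 395 kept their direction and their side of 2-fold, 14 values that were not past 2-fold changed sign, 8 passed 2-fold and 3 no longer did. Of the 395, 60 came from taking the highest entry of a shared symbol. No member shares a symbol with another entry, so these 60 could not change. The share of all genes past 2-fold higher in MII against GV went from 3.05% to 6.50% with a mean of at least 1 FPKM and to 8.60% with at least 5 FPKM, and in TubA-20 against GV from 7.61% to 16.2% and 21.0%, since fewer genes were counted. The share lower in TubA-10 against MII (0.128% and 0.154%) and the share higher in TubA-20 against MII (0.328% and 0.364%) moved less with the latter filter. Of the 25 other deadenylation genes, 4 (16%) were past 2-fold higher in MII against GV, beside 8.60% of the 7148, and 1 to 5 under the alternatives. In TubA-20 against MII, 2 (8%) were lower, beside 6.41% of the 7148, and 2 to 4 under the alternatives. In TubA-20 against TubA-10, 3 (12%) were lower, beside 14.4%, and 3 to 5 under the alternatives. In these last 2 comparisons 0 were higher, beside 0.364% and 1.32%. The shares past 2-fold of the 25 were thus near those of the 7148 there. No paired analysis was possible because each group had 1 library. With 1 library per group and no read counts, neither the spread between oocyte pools nor the counting error is known.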
